A study of Mus musculus with 9 samples.

Results

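Retinal progenitors made from mouse embryonic stem cells and left untreated (ESC-RPCs) were compared with retinal progenitors taken from newborn mouse retina (primary RPCs), on 3 arrays against 3. These 6 arrays of the series' 9 were picked by their labels, and the comparison was chosen with earlier results of these data known. The other 3 carry ESC-RPCs treated with DKK1, a secreted Wnt antagonist. They served to share the estimate of spread, and they counted in the filter and in the choice of each gene's probe set. The ESC-RPCs came from the 46C line, made by gene targeting in E14Tg2a.IV embryonic stem cells. Embryoid bodies grew for 3 days in serum-free medium with SB431542, which blocks the receptors of Nodal and activin. They were then plated on Matrigel in a medium free of retinoic acid, and on day 7 a cell sorter collected those positive for Sox1 (35.8%). They were kept in N2 medium with 10 µM DAPT, which blocks Notch cleavage by gamma-secretase, and 20 ng/ml basic fibroblast growth factor, and they received no DKK1. The primary cells were untreated and came from C57 mice at postnatal day 1, whose neural retina was dissociated. Their labels call them cultured and give neither medium nor time, so these cells are not stated to share the Sox1 sort, the DAPT or the growth factor. The series gives each group 3 independent biological repeats, and its design text calls the ESC-RPCs an early stage and uses primary cells as the negative control in questions of growth and tumour formation. A single line stands for all ESC-RPCs, and source, strain, culture and sort cannot be told apart in any difference between the groups.

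The retina arises from the eye field of the forebrain, where Rax, Six3, Six6, Lhx2 and Pax6 mark the progenitors. Retinal progenitors make ganglion, amacrine, horizontal and cone cells first and rods, bipolar cells and Müller glia later, so that rods are the main cell being made around birth in the mouse. Notch signalling keeps progenitors dividing, and cyclin D1 is the D cyclin on which retinal proliferation depends most. Sox1, the gene used for the sort, marks early neural tissue of the whole neural tube.

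Values are MAS5 intensities, given for replicates 1, 2 and 3 in that order, and a level is never compared between genes. A list's summed level adds its members' intensities, so bright probe sets weigh most, and it is compared only between groups. Differences are untreated ESC-RPCs minus primary RPCs on the log2 scale, ± SE from limma, and a gene is called where its adjusted p lies below 0.05. A gene is dim in a group where all 3 arrays lie at or below their own 40th percentile of intensity. For such a gene the difference is given as a lower bound ("at least"), with the dim group's arrays set at that percentile or at the gene's own value, whichever is higher, and the 2 groups compared by their mean log2 values. All 66 bounds printed are of called genes, with adjusted p of at most 0.0121. In these bulk samples fewer cells of a type and less RNA per cell cannot be told apart.

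The eye field genes that define retinal progenitors were bright in the primary RPCs and, for Rax and Six6, near background in the ESC-RPCs, which are called retinal progenitors here by their label only. Rax measured 7.47, 50.2 and 27 in untreated ESC-RPCs and 3185, 3635 and 4996 in primary RPCs. Six6 measured 50.4, 31.4 and 56.1 against 4282, 4007 and 4869 in the same order, and Lhx2 measured 1101, 1662 and 1374 against 3915, 4170 and 4060. All 3 were called lower in ESC-RPCs, with no overlap. Pax6 was present in both groups and lower in ESC-RPCs (1323 ± 193 against 10035 ± 1063, mean ± SD, n = 3; -2.93 ± 0.14, adjusted p = 9.47e-08). Sox1, the sorted marker, measured 2894, 2775 and 2822 in untreated ESC-RPCs and 13.8, 43.4 and 16 in primary RPCs, dim on every primary array and at least 59.9-fold higher in ESC-RPCs. Some defining markers of other cells were near background: Cdh5 of endothelium, Aif1 of microglia, Alas2 of red blood cells, Mip of lens, Rpe65 and Tyr of pigment epithelium and Pou4f2 of ganglion cells did not pass the filter on low values. Other members of those lists were measured in primary RPCs, such as Sncg of ganglion cells, Ctss of microglia and Cryaa of lens, and are given with their lists.

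The second primary array stood apart from the other 2. Of 11187 genes above the 40th percentile on all 6 arrays, it lay more than 2-fold above both other primary arrays for 151 and more than 2-fold below both for 60. The same counts were 7 and 22 for primary replicate 1, 22 and 17 for primary replicate 3, and at most 3 and 16 for an untreated array. Its high genes included the contractile and adhesion genes Actc1 (1396, 7945 and 609.6 in primary RPCs), Myl9 (1901, 8749 and 1916) and Vcl (1961, 7438 and 1157), and its low genes included the interferon mediator Irf9 (657, 241 and 884). By the median over a list of its log2 difference from the mean of the other 2 arrays, it was low for rod genes (-0.65) and for interferon genes (-0.59), and high for DNA replication genes (0.55) and mesenchyme genes (0.53). Array profiles correlated at 0.979 to 0.984 among untreated arrays, 0.964 to 0.977 among primary arrays and 0.826 to 0.836 between groups, across genes, which are not independent. The 3-prime over 5-prime ratio of Actb, a measure of RNA integrity, was 1.325 to 1.372 in untreated and 1.222 to 1.263 in primary arrays, and that of Gapdh was 0.745 to 0.786 and 0.725 to 0.757, so that Actb separated the groups and Gapdh overlapped. Its part in the differences below was not tested.

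**Figure D1:**
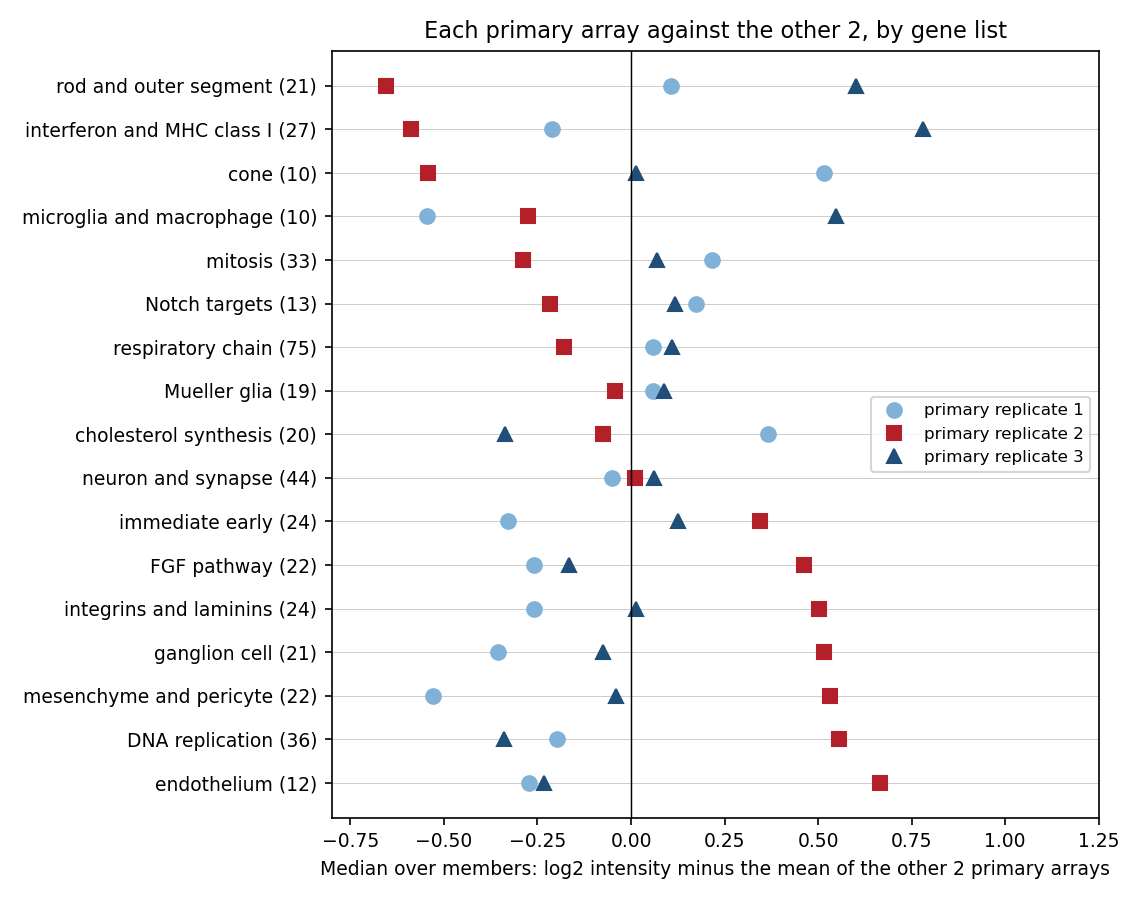
Each primary array against the other 2, by gene list: the x axis is the median over a list's tested genes of log2 intensity minus the mean of the other 2 primary arrays, 1 point per array, with the number of genes in brackets. Replicate 2 (squares) lies at -0.65 for rod genes and at 0.67 for endothelium genes.

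Of 13331 genes tested, 7060 were called (53.0%), 3481 higher (26.1%) and 3579 lower (26.8%) in ESC-RPCs. Of the 13331 genes, 8002 had 3 arrays that did not overlap the 3 of the other group. At least 2-fold differences were called for 1501 genes higher and 1269 lower, and at least 16-fold differences for 158 and 103. The median difference over all genes was -0.01, and the median size of a difference was 0.44 against a median SE of 0.15. Counts of list members below are to be read against these shares, as description only. The lists were chosen with earlier results of these data known, so part of an excess can come from that choice. A member dim in a group passed the filter only on other arrays, so counts lean to the side where such members are high. The counts cover the members that passed the filter. Among the lists whose counts are given below, these were fewest against those on the array for germ line (11 of 21), Wnt ligand (11 of 19), rod (21 of 34), microglia (10 of 16), midbrain, hindbrain and spinal (17 of 27) and bipolar genes (11 of 17). Of the lens genes, which are not counted below, 8 of 19 passed.

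Among called genes above the 40th percentile on all 6 arrays, the largest excess in ESC-RPCs was that of Dppa5a, a pluripotency-associated RNA-binding protein, at 9224, 10308 and 11702 in untreated ESC-RPCs and 112, 154 and 124 in primary RPCs. It was followed by Scd1 (5.94 ± 0.16), which puts the double bond into fatty acids, Aldoc (5.21 ± 0.17), the brain aldolase, Pou3f3 (4.89 ± 0.23), a neural POU factor, and the guidance cue netrin Ntn1 (4.85 ± 0.27). The gap junction gene Gja1 (4.74 ± 0.07), Vtn (4.68 ± 0.26), Il18 (4.63 ± 0.15), Pou5f1 (4.51 ± 0.20), Col1a2 (4.29 ± 0.17), Ccnd2 (4.27 ± 0.20) and Paqr8 (4.23 ± 0.14) completed the 12 largest. The replicates of Gja1 were close together, at 9646, 8943 and 9297 against 359.5, 343 and 341 (adjusted p = 4.01e-11). The largest deficit was that of Xist, the RNA that coats the inactive X chromosome, at 85.4, 69.9 and 49.2 in untreated ESC-RPCs and 10985, 12853 and 11165 in primary RPCs. Kdr, the VEGF receptor that retinal progenitors also carry, measured 67.8, 74.7 and 80.7 against 5689, 5186 and 7316. Prdm1 (-5.86 ± 0.18), which favours photoreceptor over bipolar fate, Col9a1 (-5.80 ± 0.31), Myb (-5.50 ± 0.17), Rnf144b (-5.12 ± 0.31) and Ankrd33b (-4.97 ± 0.26) came next. The nuclear receptor Rorb (-4.73 ± 0.11), the Wnt receptor Fzd5 (-4.64 ± 0.15), Diras2 (-4.42 ± 0.27), the cone transducin Gnat2 (-4.31 ± 0.26) and Cyp26a1 (-4.30 ± 0.20) followed. These 24 genes were chosen among those with no overlap between the groups.

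Among genes dim in one group, ESC-RPCs had the larger signal of Rfx4 (at least 63.2-fold higher), a factor of the developing brain, Zfp42 (at least 60.8-fold), Sox1, Tal2 (at least 52.4-fold), a midbrain bHLH factor, and Nanog (at least 44.2-fold). Pou3f4 (at least 39.1-fold), the midbrain gene En2 (at least 34.6-fold), Sall4 (at least 32.5-fold), Trap1a (at least 30.6-fold), the dorsal neural tube gene Pax3 (at least 25.8-fold), S100g (at least 24.8-fold) and Serpinb1a (at least 23.6-fold) were next. In the other direction the largest bound was that of phosducin, Pdc, which regulates transducin in photoreceptors: 2.3, 13.6 and 3.24 in untreated ESC-RPCs and 6245, 7772 and 10661 in primary RPCs, at least 173-fold lower in ESC-RPCs. Dapl1 (at least 123-fold lower), Crx (at least 92.6-fold), Aldh1a1 (at least 65.3-fold), the eye homeobox gene Hmx1 (at least 46.4-fold), Sag (at least 37.8-fold) and Cplx3 (at least 33.4-fold) were next. Rrh (at least 24-fold), Mak (at least 23.4-fold), Nrl (at least 22-fold), Krt73 (at least 22-fold) and Pde6h (at least 19.7-fold) completed the 12.

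**Figure D2:**
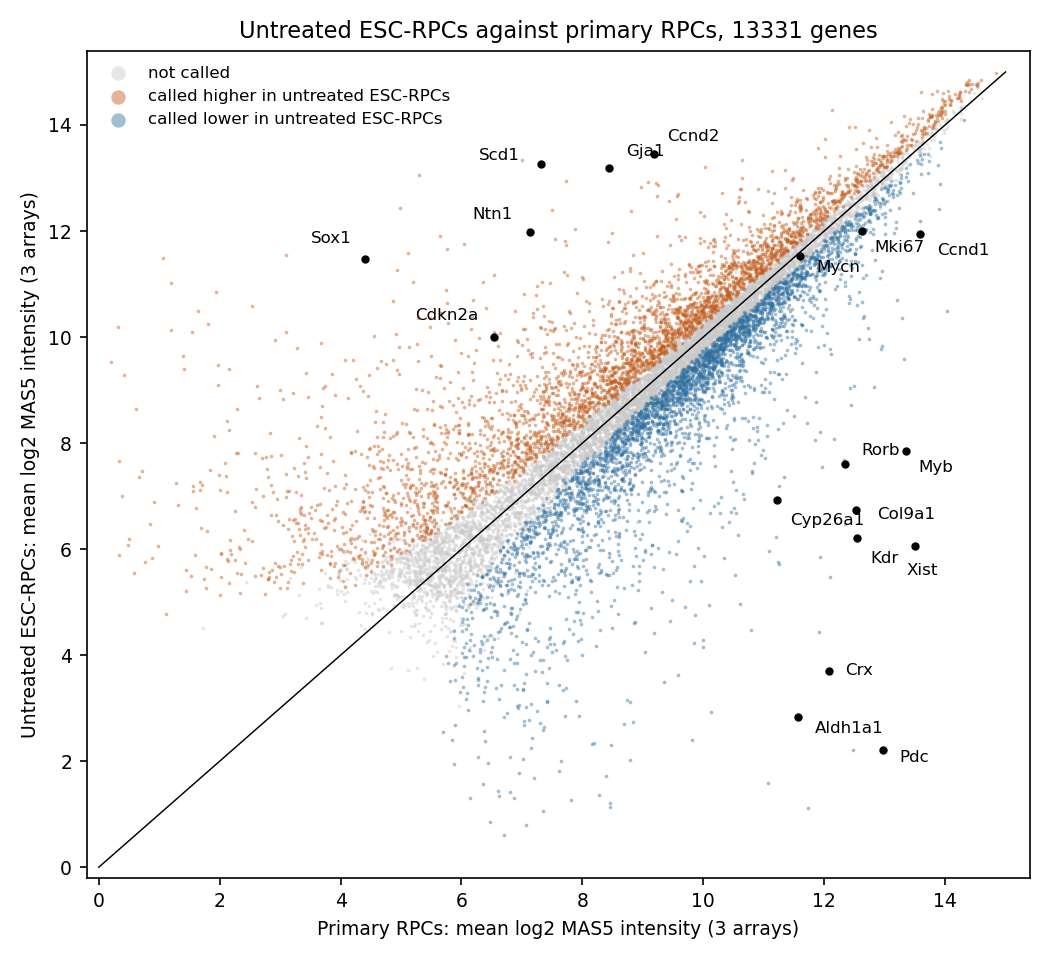
Mean log2 MAS5 intensity of each of 13331 genes in untreated ESC-RPCs (y axis) against primary RPCs (x axis), 3 arrays a group, coloured by call. Genes on the diagonal line have equal means; Ccnd2, Gja1, Scd1 and Sox1 lie above it and Xist, Kdr, Myb, Crx and Pdc below it.

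The series set primary cells against ESC-RPCs to ask about proliferation and oncogenesis. Of 16 oncofetal and Myc genes tested, 12 were higher and 2 lower (median 1.37, and 1.23 counting dim genes by their bound). Sall4, a zinc finger factor of pluripotent and fetal cells, measured 1376, 1534 and 1716 in untreated ESC-RPCs and 3.7, 17.9 and 2.95 in primary RPCs. The let-7 inhibitor Lin28a was at least 16-fold higher and its paralog Lin28b at least 1.23-fold higher, and Eras, a Ras of embryonic stem cells, was at least 5.98-fold higher. Utf1 was at least 10.7-fold higher, and the let-7 targets Hmga2 (1728 ± 194 against 672 ± 202) and Igf2bp1 (2730 ± 286 against 1102 ± 450.1) were higher by 1.41 ± 0.24 and 1.38 ± 0.24. Myc measured 575, 688 and 708 in untreated ESC-RPCs and 274, 324 and 187 in primary RPCs, with no overlap (1.36 ± 0.18, adjusted p = 0.000139). Mycn, which drives growth of retinal progenitors, measured 2964, 2707 and 3243 against 3162, 2796 and 3390 and did not pass the test (-0.07 ± 0.11, adjusted p = 0.611). The 2 lower genes were both Myb factors of dividing progenitors: Myb measured 269, 192 and 239 in untreated ESC-RPCs and 9758, 11809 and 9910 in primary RPCs, and Mybl1 measured 217, 136 and 188 against 1956, 1331 and 2202. Their relative Mybl2 was higher in ESC-RPCs (1.03 ± 0.24, adjusted p = 0.00425). Averaging its probe sets ended that call (0.75, adjusted p = 0.0554).

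Of 11 germ line genes tested, 8 were higher and 1, Prdm1, was lower (median 2.77). With no filter 10 of 21 were higher and 2 lower (median 0.97). Rhox5 measured 1430, 1570 and 1811 in untreated ESC-RPCs and 34.8, 82.7 and 55.5 in primary RPCs, and Tex19.1 was higher by 2.77 ± 0.37. Morc1, at least 15.7-fold higher, Dppa3, at least 16.1-fold higher, and Tdrd12, at least 7.25-fold higher, were dim in primary RPCs. These genes are active in germ cells and, in part, in cultured embryonic stem cells.

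The D cyclins ran in opposite directions. Ccnd2 measured 10114, 11341 and 12368 in untreated ESC-RPCs and 790.2, 616 and 408 in primary RPCs, and Ccnd1 measured 3545, 3789 and 4606 against 11776, 15796 and 10004. All 3 ESC-RPC arrays lay far above the primary arrays for Ccnd2 (4.27 ± 0.20, adjusted p = 7.06e-08) and below them for Ccnd1 (-1.64 ± 0.17, adjusted p = 2.73e-05). Among the G1 cyclins and kinases Cdk6 was also lower (-0.74 ± 0.19), and Ccne1 (0.84 ± 0.17) was higher. In all 4 of 8 were higher and 2 lower (median 0.21), and 2 were higher without untreated replicate 3.

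Inhibitors of cyclin-dependent kinases were called in both directions, also within the Ink4 family. Its members Cdkn2a and Cdkn2b were higher in ESC-RPCs, with 927, 1007 and 1152 in untreated ESC-RPCs and 69, 104 and 112 in primary RPCs for Cdkn2a and 359, 379 and 442 against 117, 147 and 132 for Cdkn2b. Cdkn1a, the p53 target p21, was lower, at 1029, 925 and 1135 against 2731, 3203 and 2615, as were the Ink4 members Cdkn2c (-1.34 ± 0.14) and Cdkn2d (-0.77 ± 0.09) and Cdkn1b (-0.81 ± 0.14), the p27 that lets retinal progenitors leave the cycle. Rb1, the retinoblastoma gene, was higher by 0.27 ± 0.09, a call that was lost without any 1 of the untreated arrays. In all, 3 of 11 were higher and 6 lower (median -0.72).

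Of 36 DNA replication genes 14 were higher and 2 lower (median 0.36), against 3 higher and 10 lower of 33 mitosis genes (median -0.03). Orc1, of the origin recognition complex, measured 387, 306 and 452 in untreated ESC-RPCs and 99.8, 149 and 70.5 in primary RPCs, and thymidine kinase Tk1 measured 1339, 1244 and 1625 against 524, 593 and 615. Gins2 was higher by 1.02 ± 0.21, and E2f1, a transcription factor that switches on S phase genes, was lower (-1.01 ± 0.18). The other lower gene, Mcm6 (-0.45 ± 0.17), kept its call only when primary replicate 3 was the array left out. Nuf2, of the kinetochore, measured 439, 467 and 602 in untreated ESC-RPCs and 2094, 1962 and 1981 in primary RPCs. Kif23 (-1.18 ± 0.13), Ccna2 (-0.94 ± 0.09) and Ndc80 (-0.87 ± 0.13) were lower too, as was the proliferation marker Mki67, at 3742, 4417 and 4188 against 6787, 6292 and 5969 (adjusted p = 0.000792). Ccnb2 (0.64 ± 0.11), Bub1 (0.76 ± 0.14) and Hmmr (0.53 ± 0.18) were the 3 higher, and other probe sets of Bub1 and Hmmr were called lower. The mean of its probe sets put Bub1 lower (-0.47, adjusted p = 0.0174). Hmmr lost its call without any 1 array other than primary replicate 1. Top2a measured 8349, 8387 and 9299 against 8146, 7773 and 8372 and did not pass the test (adjusted p = 0.295), while the mean of its probe sets was called lower (-0.35, adjusted p = 0.00969).

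The second primary array bears on these counts. Its replication genes lay above those of the other primary arrays, for example Cdc6 at 347, 1329 and 389 against 924, 864 and 1093 in ESC-RPCs. Without it, 23 replication genes were higher and 1 lower, and 2 mitosis genes were higher and 13 lower, with medians of 0.53 and -0.28. Cdc6 itself was then higher by 1.38 (adjusted p = 7.96e-05).

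**Figure D3:**
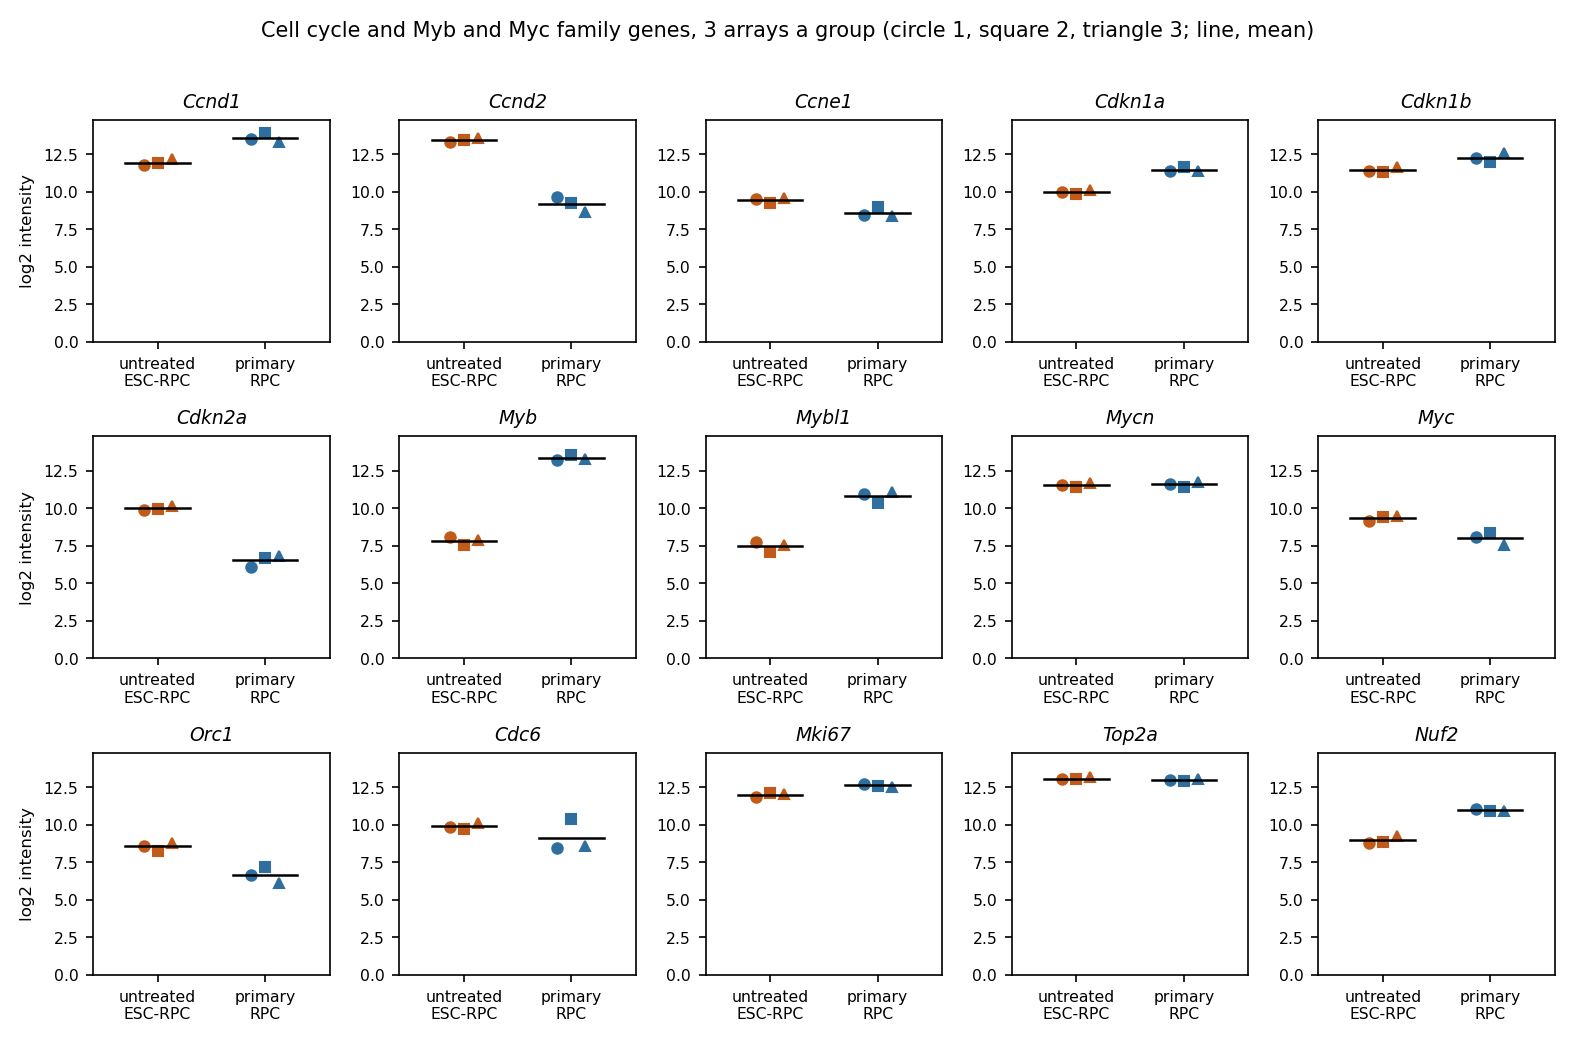
Log2 MAS5 intensity on each array for 15 genes of the cell cycle and the Myb and Myc families; orange, untreated ESC-RPCs, blue, primary RPCs, with circle, square and triangle for replicates 1, 2 and 3 and a line at the mean. Ccnd2 and Cdkn2a are higher and Ccnd1, Myb and Nuf2 lower in ESC-RPCs, Mycn and Top2a overlap, and Cdc6 on primary replicate 2 lies above the other primary arrays and the ESC-RPC arrays.

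Of 18 p53 targets 3 were higher and 8 lower (median -0.19). Gadd45a, a stress gene that slows the cycle, measured 773, 783 and 822 in untreated ESC-RPCs and 1865, 2472 and 1463 in primary RPCs, and Phlda3 (-0.56 ± 0.13) and Btg2 (-0.63 ± 0.15) were lower too. Ccng1 measured 10193, 10799 and 11846 against 6075, 4453 and 4343, and with Zmat3 (1.39 ± 0.14) and Trp53inp1 (0.83 ± 0.10) it was higher. Of 22 tumour suppressor genes 7 were higher and 3 lower (median 0.07), and 1 was lower without untreated replicate 1 or 2. Besides Cdkn2a, Dab2 (1.53 ± 0.23), Wwox (1.32 ± 0.27) and the Hedgehog receptor Ptch1 (0.99 ± 0.10) were higher, and Rassf1 (-0.87 ± 0.13) was lower. Of 21 kinase and Ras proto-oncogenes 5 were higher and 6 lower (median 0.07). Egfr (1.78 ± 0.21), Pdgfrb (2.31 ± 0.20) and Erbb3 (1.46 ± 0.24) were higher, and Ret, at 104, 90.8 and 121 against 481, 689.6 and 465, and Met (-1.63 ± 0.46) were lower.

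Most photoreceptor genes tested were lower in ESC-RPCs. Of 21 rod and outer segment genes tested, 17 were lower and 1 higher (median -3.50, and -2.45 counting dim genes by their bound), and 13 further genes on the array did not pass the filter (with no filter 20 of 34 were lower and the median was -2.42). Of 10 cone genes 8 were lower and 0 higher (median -4.41, and -2.97 counting dim genes by their bound). Of 17 photoreceptor transcription factors 13 were lower and 3 higher (median -2.30, and -1.98 counting dim genes by their bound). Crx, the homeobox factor that drives most photoreceptor genes, measured 3.69, 37.2 and 16 in untreated ESC-RPCs and 4614, 2953 and 5866 in primary RPCs, and its rod partner Nrl measured 10.9, 35.5 and 19 against 641, 801 and 2100. Samd7 was at least 9.49-fold lower, Prdm1 measured 75.5, 98.5 and 95.5 against 4823, 4173 and 6869 and Rorb measured 213, 205 and 173 against 5451, 5213 and 4906.

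The 3 factors that were higher also act outside photoreceptors: Sall3 (3.22 ± 0.52), Esrrb (3.06 ± 0.15), a pluripotency factor, and Mef2c (2.02 ± 0.31). Sag, the arrestin of rods that ends the light response, measured 28.2, 15.7 and 24.5 in untreated ESC-RPCs and 1502, 1277 and 2841 in primary RPCs, and Pdc was named above. Rp1 was at least 7.58-fold lower and Tulp1 at least 16.4-fold lower. Of the cone genes, the transducin Gnat2 measured 77.9, 65.2 and 89.9 against 1931, 1286 and 1450, the short-wave opsin Opn1sw was at least 9.16-fold lower and the channel subunit Cngb3 at least 14-fold lower. The 1 higher member was Gnb1 (0.37 ± 0.07), a beta subunit that most cells carry. Primary replicate 2 was low for both lists (-0.65 for rod and -0.54 for cone genes), and the counts without it were 18 lower and 1 higher of 21 for rod genes and 8 lower of 10 for cone genes. Without primary replicate 1, 2 rod genes were higher.

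CRX binds the letters TAATCC, which read GGATTA on the other strand. Of the 17 lower rod genes 14 had a promoter in the RefSeq table (build GRCm38.p6), and 9 of these 14 held the letters on either strand within the 250 bases before the start. In that window they stood in 50% of the 18 promoters of those genes and in 6.252% of all 32851 promoters. Of the 8 lower cone genes 4 had a promoter, and 1 of these, Gnat2, held the letters (20% of 5 promoters). In all 8 motifs were searched on both strands. They were TAATCC, the NF-Y box CCAAT, the E-box CACGTG and the cAMP response element TGACGTCA. The RBPJ site TGGGAA, the TCF site CTTTGATC, a serum response element and a sterol response element were the others. Each was searched in called genes of the rod, cone, cholesterol, fatty acid, immediate early, pluripotency, DNA replication, Notch target, ribosomal protein and imprinted lists. The 2 motifs shown were chosen for display after the counts were seen. A match says only that the letters stand in the window. Stretches of 4 promoters are shown, from rod, cone and Crx genes that were lower in ESC-RPCs, with the motif in capitals and at most 80 bases each, 5′ to 3′ along the gene.
Rbp3, chr14:33953897-33953976, plus strand: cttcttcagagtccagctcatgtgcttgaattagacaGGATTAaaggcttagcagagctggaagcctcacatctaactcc
Gnat2, chr3:108093010-108093065, plus strand: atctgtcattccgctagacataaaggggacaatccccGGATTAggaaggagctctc
Crx, chr7:15879956-15880013, minus strand: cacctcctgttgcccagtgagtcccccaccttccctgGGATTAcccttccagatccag
Guca1a, chr17:47400621-47400700, minus strand: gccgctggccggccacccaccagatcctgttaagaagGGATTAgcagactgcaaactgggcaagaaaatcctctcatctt

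Rbp3, the retinoid carrier between photoreceptors and pigment epithelium, measured 56, 18.2 and 52.6 in untreated ESC-RPCs and 469, 408 and 585 in primary RPCs. Guca1a, the calcium sensor of guanylate cyclase, measured 56.5, 17.6 and 58.9 against 393, 223 and 639.9. Both were lower on all 3 ESC-RPC arrays (-3.68 ± 0.44, adjusted p = 6.27e-05, and -3.30 ± 0.51, adjusted p = 0.000327).

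Genes of the eye field and of retinal progenitors were lower in ESC-RPCs as well, 17 of 24 lower and 5 higher (median -1.73, and -1.63 counting dim genes by their bound). Foxn4, which makes progenitors able to form amacrine and horizontal cells, measured 8.74, 46.7 and 49.2 in untreated ESC-RPCs and 762, 1157 and 907 in primary RPCs. The T-box genes of the dorsal retina, Tbx2 (141, 183 and 173 against 1850, 3399 and 2743) and Tbx3 (123, 92.7 and 165 against 1215, 1955 and 1820), were lower, and Hmx1 was named above. The higher members Crabp1 (1.67 ± 0.17), Sfrp2 (1.56 ± 0.27) and Lhx9 (0.94 ± 0.19) are expressed in other parts of the neural tube too. Of 11 bipolar cell genes 7 were lower and 0 higher (median -1.49, and -1.41 counting dim genes by their bound), among them Pcp2, at least 2.88-fold lower. With no filter 6 of 17 were lower and the median was -0.093.

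The early retinal neurons were mixed. Of 21 ganglion cell genes 12 were lower and 6 higher (median -0.96). Atoh7, the bHLH factor that makes progenitors able to form ganglion cells, measured 46, 52.7 and 78.7 in untreated ESC-RPCs and 5029, 4085 and 2878 in primary RPCs. Sncg measured 28.7, 59.5 and 85.9 against 1475, 3858 and 2538, and Isl2 (-2.85 ± 0.28) and Pou4f1 (-1.60 ± 0.29) were lower. The higher members Dlx1 (3.61 ± 0.28), Dlx2 (2.32 ± 0.23), Irx2 (3.28 ± 0.14) and Ebf1 (1.11 ± 0.17) are also factors of brain regions outside the eye.

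Of 20 amacrine and horizontal genes 8 were lower and 7 higher (median -0.18). Ptf1a, which commits progenitors to these fates, measured 59.4, 37.9 and 42.9 in untreated ESC-RPCs and 1450, 1748 and 1275 in primary RPCs, and Neurod4 measured 506, 452 and 663 against 7451, 5522 and 9164. Lhx1, of horizontal cells and of many brain neurons, ran the other way at 1147, 1599 and 1257 against 31.3, 58.6 and 49.2, with Ebf2 (3.02 ± 0.16) and the GABA enzyme Gad1 (2.19 ± 0.32). Of 19 Müller glia genes 9 were lower and 8 higher (median -0.05), and differences of at least 2-fold were called for 8 lower and 1 higher. Sox8 (-4.06 ± 0.17), Crym (-3.73 ± 0.29), Gpr37 (-3.73 ± 0.19) and Dkk3 (-3.38 ± 0.13) were lower, and Slc1a3, the glutamate transporter (0.87 ± 0.11), and the water channel Aqp4 (at least 5.22-fold) were higher. Slc1a3 and Aqp4 are shared with brain astrocytes.

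Regional genes of other parts of the neural tube were higher in ESC-RPCs. Of 17 midbrain, hindbrain and spinal genes 14 were higher and 1 lower (median 3.28, and 1.84 counting dim genes by their bound). Of these 17 genes, 11 were dim on every primary array and passed the filter on ESC-RPC arrays only. En2 measured 1460, 1780 and 1677 in untreated ESC-RPCs and 15.3, 37.1 and 43.1 in primary RPCs. Hoxb1 was at least 8.43-fold higher, Hoxb2 at least 18.7-fold and Hoxa2 at least 7.58-fold, and all 3 are Hox genes of the hindbrain. The lower gene was Egr2 (-1.21 ± 0.37), a hindbrain factor that is also an immediate early gene, and its call was lost without untreated replicate 3 or primary replicate 2.

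Of 17 dorsoventral genes 13 were higher and 3 lower (median 2.84, and 1.27 counting dim genes by their bound), and both poles were present. Pax3, of the dorsal tube, measured 1179, 998 and 1545 in untreated ESC-RPCs and 1.67, 10.6 and 2.45 in primary RPCs. Dbx1, of the middle of the tube, measured 2761, 3298 and 3770 against 52.3, 52.1 and 58.4. Foxa2, of the floor plate, was at least 9.81-fold higher and Nkx6-1 at least 2.41-fold higher. Olig2 was lower (627, 671 and 353 against 883, 1428 and 1793, adjusted p = 0.00823), while its neighbour in function Olig1 was higher (1770, 1731 and 596 against 31.5, 85.7 and 60.1, 4.49 ± 0.56).

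Of 18 forebrain genes 11 were higher and 5 lower (median 2.42, and 1.09 counting dim genes by their bound). The ventral forebrain genes Gsx2 (at least 4.26-fold), Dlx5 (at least 10.8-fold) and Dlx6 (at least 3.55-fold) were higher. The Otx paralogs ran apart: Otx1 measured 860.0, 1006 and 849.5 in untreated ESC-RPCs and 28.7, 37.1 and 29 in primary RPCs, and Otx2, which acts upstream of Crx, measured 4979, 6258 and 5173 against 13186, 14394 and 18896. The other lower members were Six3 (931, 1537 and 693 against 6395, 6922 and 7371), Lhx2, Fezf2 (-3.43 ± 0.27) and Eomes (-0.96 ± 0.25). Six3, Lhx2 and Otx2 also act in the eye.

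The Sox family, transcription factors that keep progenitors or steer their fate, had 11 of 18 genes higher and 1 lower (median 0.59, and 0.39 counting dim genes by their bound), or 2 lower without untreated replicate 2 or primary replicate 3. Sox21 measured 1990, 1993 and 1990 in untreated ESC-RPCs and 135, 142 and 186 in primary RPCs, and Sox11, of young neurons, measured 15055, 15796 and 15068 against 6863, 6952 and 6820. Another probe set of Sox11 was called lower (-0.73, adjusted p = 0.000228), and its remaining probe sets were called higher. Sox6 (1.30 ± 0.13) was higher too, and the lower gene was Sox8 (178, 137 and 125 against 2569, 2768 and 2017), of late retinal progenitors and Müller glia. Of 12 neural crest genes 5 were higher and 3 lower (median 0.48, and 0.23 counting dim genes by their bound): Twist1 was at least 8.22-fold higher, Tfap2a, also a factor of amacrine cells, was lower (278, 224 and 339 against 1350, 1209 and 1658), and the crest marker Sox10 (66.9, 40.1 and 41.3 against 31.7, 67.2 and 52.8) did not pass the test.

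**Figure D4:**
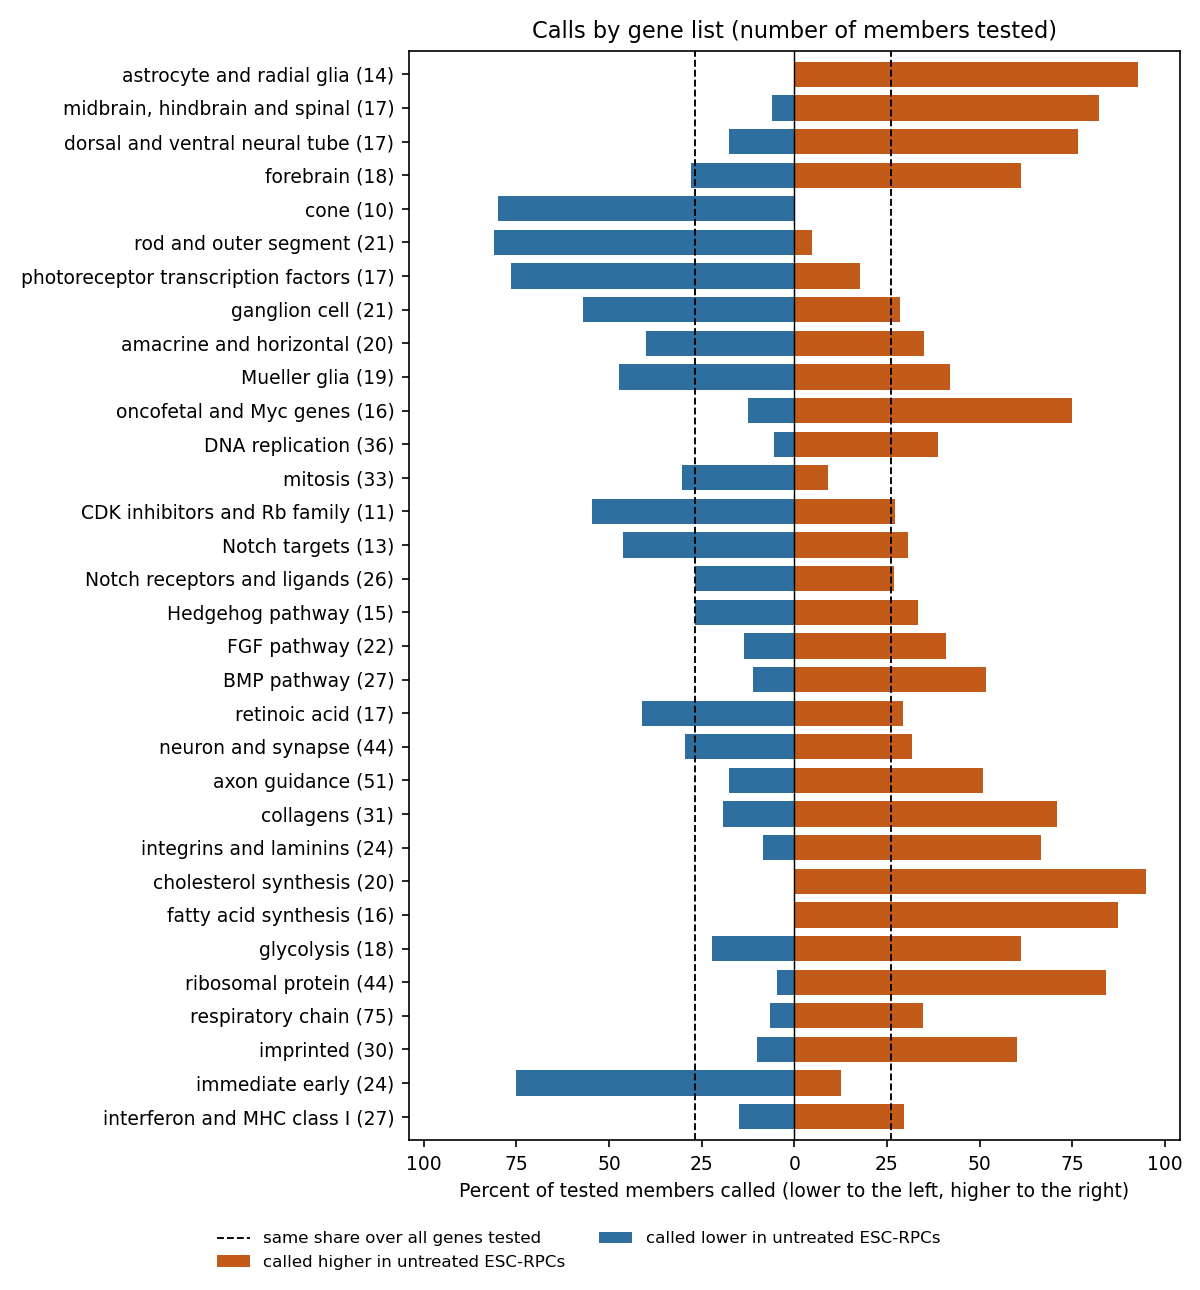
Percent of each list's tested genes called higher (orange, right) or lower (blue, left) in untreated ESC-RPCs, with the number tested in brackets; dashed lines mark the same shares over all 13331 genes, 26.1% and 26.8%. Astrocyte, regional and cholesterol lists extend to the right and photoreceptor and immediate early lists to the left.

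The ESC-RPCs alone are labelled as grown with DAPT, which prevents the release of the active Notch fragment. Of 13 Notch target genes 6 were lower and 4 higher (median -0.27). Hes1, a repressor that keeps progenitors undifferentiated, measured 402, 541 and 509.6 in untreated ESC-RPCs and 1535, 969 and 1400 in primary RPCs. Heyl measured 99.5, 139.7 and 104 against 575, 570.3 and 621 and Dtx1 measured 380.4, 388 and 319 against 1796, 1910 and 1713, and all 3 were lower with no overlap. Hey2 was lower too (-0.92 ± 0.18). Hes5, the other main effector, measured 6092, 5862 and 6744 against 6303, 2002 and 8478 and did not pass the test (adjusted p = 0.439), with primary replicate 2 lowest of the 6 arrays. Hey1 measured 667, 675 and 664 against 952, 594 and 919 and did not pass the test (adjusted p = 0.215). Fabp7 (0.80 ± 0.08), Id3 (0.83 ± 0.15) and Sox9 (0.48 ± 0.10) were among the higher members. The part of DAPT in differences of either direction was not tested. Without primary replicate 2, 8 Notch targets were lower and 4 higher, Hey1 among the lower (-0.48, adjusted p = 0.00387).

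Of 26 genes of Notch receptors, ligands and processing 7 were higher and 7 lower (median -0.05). Notch1, the main receptor of neural progenitors, measured 2569, 2571 and 2527 in untreated ESC-RPCs and 4534, 3523 and 4794 in primary RPCs, and Notch3 measured 949, 903 and 1024 against 104, 179.7 and 96.3. Notch1 was lower (-0.73 ± 0.11) and Notch3 higher (2.98 ± 0.21) with no overlap, and Notch2 was higher (0.80 ± 0.14). Among ligands Dll1 was lower, at 1930, 2065 and 1996 against 2880, 2859 and 4245, Dll4 was at least 6.06-fold lower, and Jag1 was higher at 2013, 2210 and 2341 against 195, 312 and 277. Psen2, a gamma-secretase subunit, was lower (-1.15 ± 0.16), as was Numbl (-0.82 ± 0.18), a relative of the Notch inhibitor Numb.

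Of 15 Hedgehog genes tested 5 were higher and 4 lower (median 0.15). Shh, the ligand, measured 1308, 1344 and 1713 in untreated ESC-RPCs and 191, 255 and 219 in primary RPCs. The targets Ptch1 (6147 ± 635 against 3092 ± 229) and Hhip (181 ± 45.1 against 346 ± 83.7) went opposite ways, by 0.99 ± 0.10 and -0.93 ± 0.25. Gli1, the most direct target, measured 203, 184 and 213 against 141, 422 and 81.2 and did not pass the test (adjusted p = 0.681), with primary replicate 2 above and the other 2 below the ESC-RPC arrays, and it was higher without that replicate (0.90, adjusted p = 0.0087). The coreceptor Boc measured 729.9, 855 and 909 against 175, 135 and 125, and its relative Cdon measured 506, 510.1 and 478 against 1793, 2191 and 2196, so that the 2 lay on opposite sides. Gas1, a further coreceptor, was lower (-0.69 ± 0.11).

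Of 22 FGF pathway genes 9 were higher and 3 lower (median 0.14, and 0.04 counting dim genes by their bound). The receptors Fgfr2 and Fgfr3 measured 904, 869 and 827 against 123, 155 and 137 and 960.1, 797 and 1040 against 87.6, 222 and 107, and Fgfr1 was higher too (2.03 ± 0.11). Fgf9, a ligand of the neural retina, measured 93.5, 114 and 106 in untreated ESC-RPCs and 1304, 1723 and 1244 in primary RPCs. Fgf15, of early neural and retinal progenitors, was higher in ESC-RPCs (3785, 3521 and 4028 against 1182, 2054 and 934). Etv5, a factor that FGF signalling switches on, was lower (-0.65 ± 0.12), and the medium of the ESC-RPCs is labelled as holding basic FGF.

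Of 27 BMP pathway genes 14 were higher and 3 lower (median 0.60, and 0.56 counting dim genes by their bound). The ligand Bmp4 was higher (441 ± 14.1 against 66.8 ± 23.8, 2.78 ± 0.22), and Bmp5 was at least 4.66-fold higher. The antagonist Fst, which binds activin and BMPs, measured 806, 848 and 633 against 60.5, 149 and 110.0. The target genes Id2 (2.17 ± 0.15), Id4 (2.05 ± 0.11) and Id3 were higher, while the inhibitory Smad7 (-0.90 ± 0.20) and Bambi (-1.04 ± 0.28) were lower. Smad6 (-1.23 ± 0.40) was the third lower gene, and its call was lost without untreated replicate 1 or 2 or primary replicate 2.

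Of 17 retinoic acid genes 5 were higher and 7 lower (median -0.13). Of the enzymes that make retinoic acid, Aldh1a1, of the dorsal retina, measured 23, 3.91 and 4.06 in untreated ESC-RPCs and 2820, 2759 and 3609 in primary RPCs. Aldh1a3, of the ventral retina, was at least 12.5-fold lower, while Aldh1a2, of the trunk and hindbrain region, was at least 2.46-fold higher. Of the enzymes that destroy it, Cyp26a1 measured 113, 102 and 155 against 2119, 3111 and 2090 and Cyp26b1 1330, 839 and 1106 against 11.2, 61 and 40.4. Rdh10, which makes the aldehyde precursor, was lower (-1.96 ± 0.12), and the binding protein Crabp2 was higher at 6160, 6050 and 7355 against 642, 1155 and 589.7.

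**Figure D5:**
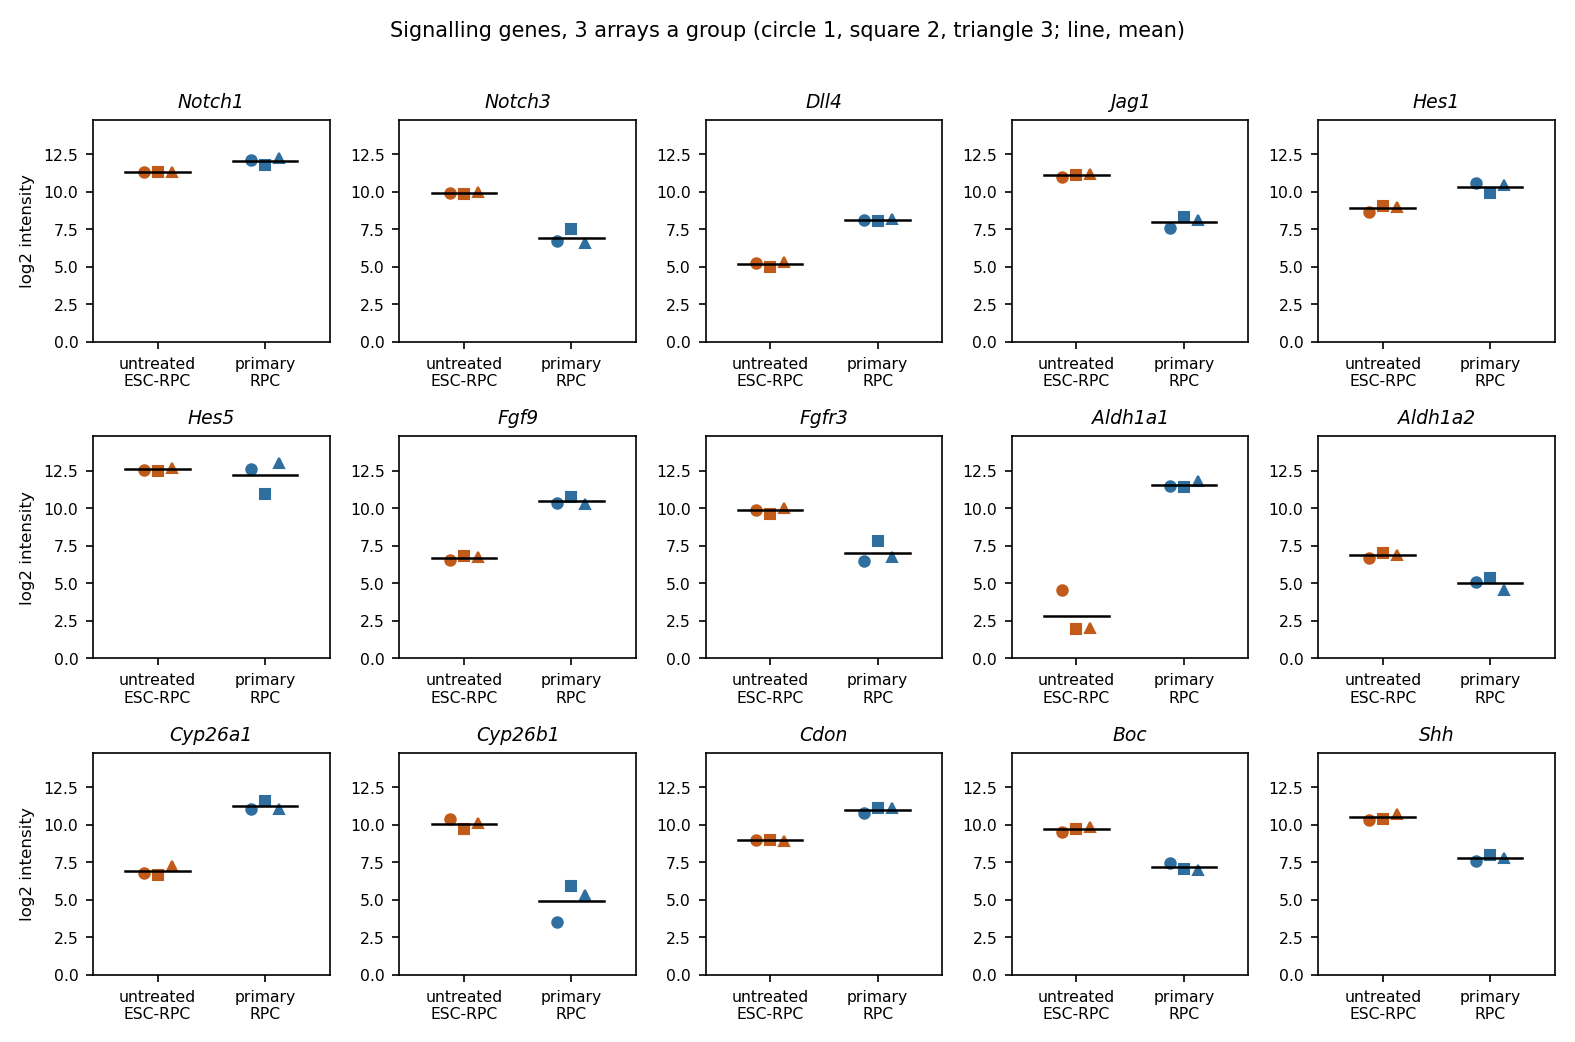
Log2 MAS5 intensity on each array for 15 genes of Notch, FGF, retinoic acid and Hedgehog signalling; colours and symbols as in the plot of cell cycle genes. Notch1 and Notch3, Dll4 and Jag1, Fgf9 and Fgfr3, Aldh1a1 and Aldh1a2, Cyp26a1 and Cyp26b1, and Cdon and Boc form pairs that lie on opposite sides in the 2 groups, and Hes5 overlaps.

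Of 16 insulin-like growth factor genes tested 7 were higher and 4 lower (median 0.32). Igfbpl1 measured 3604, 3645 and 3077 in untreated ESC-RPCs and 209, 222 and 206 in primary RPCs and Igfbp5 measured 5198, 5880 and 4914 against 447, 586 and 335. The growth factor Igf2 was higher (4392, 4487 and 4251 against 2147, 1901 and 3011), and Igf1 was lower (-0.98 ± 0.20). The receptor Igf1r was lower (-0.51 ± 0.15), a call that was lost without untreated replicate 1 or 3. Igfbp7 was lower (-2.53 ± 0.31), and its probe sets disagreed in direction.

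Of 31 Wnt receptor and antagonist genes 17 were higher and 8 lower (median 0.74). Fzd5, the Frizzled of the eye field, measured 205, 205 and 205 in untreated ESC-RPCs and 5081, 5912 and 4507 in primary RPCs, while Fzd1 (2.59 ± 0.17), Fzd9 (2.53 ± 0.17) and Fzd10 (2.40 ± 0.26) were higher. The antagonist Sfrp1 measured 1205, 1396 and 1452 against 139.9, 252 and 128, Frzb was higher by 3.78 ± 0.21 and Dkk2 at least 9.92-fold higher. Dkk1 itself was at least 2.83-fold higher, and Dkk3 was lower (606, 518 and 471 against 4768, 6322 and 5489). Of 11 Wnt ligands 6 were higher and 0 lower (median 1.46, and 0.70 counting dim genes by their bound), with Wnt5a at 1022, 1152 and 1257 against 143, 208 and 155 and Wnt7b at 636, 526 and 484 against 175, 314 and 141. The agonists Rspo1 and Rspo3 were at least 3.5-fold and at least 1.72-fold higher.

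Most astrocyte and radial glia genes tested were higher in ESC-RPCs. Of 14 tested 13 were higher and 0 lower (median 3.45, and 2.32 counting dim genes by their bound), and the summed level of the list was 53816 to 62236 in ESC-RPCs and 18094 to 21057 in primary RPCs. Without primary replicate 3, 1 was lower. Aldoc measured 8832, 8404 and 6596 in untreated ESC-RPCs and 177, 203 and 268 in primary RPCs. Aldh1l1, a folate enzyme used as an astrocyte marker, measured 2185, 2011 and 1520 against 44.4, 81.8 and 42.6, and Gfap, the filament of mature astrocytes, was at least 2.25-fold higher. Tnc (3.42 ± 0.29), Sparcl1 (3.47 ± 0.37) and Ttyh1 (2.51 ± 0.13) were higher too.

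Other cell types were represented on both sides. Of 22 mesenchyme and pericyte genes 16 were higher and 3 lower (median 1.84), with sums of 34194 to 38326 against 10097 to 14380. The fibrous collagen Col3a1 measured 8474, 9368 and 7780 in untreated ESC-RPCs and 30.9, 61.2 and 32.5 in primary RPCs, and the matrix proteoglycan Dcn measured 3686, 4431 and 3516 against 47.2, 65.2 and 41. Postn was at least 20.7-fold higher and Lum at least 20-fold. The pericyte gene Rgs5 ran the other way, at least 9.96-fold lower, and was highest on primary replicate 2 (240.4, 1014 and 408).

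Of 10 microglia genes 5 were lower and 0 higher (median -1.25, and -0.93 counting dim genes by their bound), with summed levels of 350 to 397 against 1095 to 1884. Of these 10 genes, 5 were dim in untreated ESC-RPCs and passed the filter on other arrays only. C1qb was at least 3.75-fold lower and Ctss at least 9.55-fold, while the defining markers Cx3cr1 (26.1, 41.2 and 25.6 against 69.1, 55.4 and 86.1) and Csf1r (89.8, 54.6 and 97.5 against 110.4, 99.5 and 124) did not pass the test. Of 12 endothelial genes 2 were higher and 2, Kdr and Cldn5 (-1.67 ± 0.25), were lower, with summed levels of 1215 to 1468 against 6598 to 8256. Without Kdr, the other 11 genes summed to 1140 to 1387 in ESC-RPCs and 913 to 1412 in primary RPCs, which overlap. Pecam1 (77, 71.2 and 72.3 against 45.9, 50.5 and 55.8) did not pass the test. Cryaa, the alpha crystallin of lens, was at least 7.63-fold lower. The part of these cells in other results was not tested.

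Of 21 epithelial genes 11 were higher and 2 lower (median 1.27, and 0.39 counting dim genes by their bound). E-cadherin, Cdh1, measured 1121, 1328 and 1569 in untreated ESC-RPCs and 89.8, 459 and 73.3 in primary RPCs, with primary replicate 2 above the other primary arrays and below the ESC-RPC arrays. Esrp1, an epithelial splicing factor, was at least 4.16-fold higher, and Spint2 (-1.58 ± 0.14) was lower.

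Of 44 neuron and synapse genes 14 were higher and 13 lower (median 0.04). Among the higher genes Tubb3, the neuronal tubulin, measured 9158, 9743 and 8566 in untreated ESC-RPCs and 2620, 2544 and 2651 in primary RPCs, and doublecortin, Dcx, measured 5478, 5806 and 4532 against 835, 1467 and 778. The AMPA receptor subunits Gria3 (2.64 ± 0.24), Gria1 (1.99 ± 0.34) and Gria2 (1.84 ± 0.33) were higher. Among the lower genes, of synaptic vesicles, Snap25 measured 1475, 1413 and 1077 against 5702, 6377 and 7109 and Sv2b measured 115, 113 and 124 against 1227, 1178 and 1245. Syp (-1.44 ± 0.25), Syt1 (-1.50 ± 0.17) and the ribbon synapse complexins Cplx3 (at least 33.4-fold) and Cplx4 (at least 2.79-fold) were lower too. Stmn2 measured 7411, 7738 and 6107 against 6544, 6737 and 7039 and did not pass the test (0.06 ± 0.12, adjusted p = 0.709). Nlgn1 was lower (-2.62 ± 0.50) and varied within primary RPCs (1940, 458 and 1788).

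Of 51 axon guidance genes 26 were higher and 9 lower (median 0.45). Ntn1 measured 3842, 3727 and 4706 in untreated ESC-RPCs and 96.6, 238 and 122 in primary RPCs, and its receptor Dcc measured 4580, 4679 and 5142 against 837, 686 and 726. Both the cue and the receptor were higher on every ESC-RPC array. Nrp2 (2.66 ± 0.29), Unc5d (2.44 ± 0.24) and Efnb3 (2.21 ± 0.12) were higher as well. Plxnd1 (-2.56 ± 0.20), Robo2 (-2.44 ± 0.42), Epha5 (-2.17 ± 0.24) and Sema4d (-1.59 ± 0.15) were lower. Epha5 helps to map ganglion cell axons.

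Of 46 ion channel genes 11 were higher and 13 lower (median 0.16), and 7, 6 and 7 were higher without untreated replicate 1, untreated replicate 2 and primary replicate 1. The lower channels include retinal ones: Kcnv2, of photoreceptors, was at least 4.19-fold lower, and Trpm3 measured 50.8, 70.7 and 76.3 in untreated ESC-RPCs and 899, 1180 and 839 in primary RPCs. Kcnc2 (66.1, 60.9 and 53.4 against 735, 713 and 803) and Kcnk1 (-2.95 ± 0.16) were lower, and Kcnk5 (2.23 ± 0.17), Kcnk2 (1.59 ± 0.23) and Kcnn2 (1.38 ± 0.14) were higher.

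Most lipid synthesis genes tested were higher in ESC-RPCs. Of 20 cholesterol genes 19 were higher and 0 lower (median 1.66), and of 16 fatty acid genes 14 were higher and 0 lower (median 1.24), or 1 lower without primary replicate 3. Scd1 measured 9740, 10076 and 9533 in untreated ESC-RPCs and 219, 146 and 127 in primary RPCs. Fasn, the fatty acid synthase, measured 5851, 5947 and 5906 against 2448, 1996 and 2366, and Srebf1, the factor that drives these genes, measured 3352, 3690 and 3469 against 783, 1103 and 1099. Tm7sf2 (3.57 ± 0.12), Msmo1 (2.70 ± 0.22), Mvd (2.52 ± 0.25) and Hsd17b7 (2.07 ± 0.22) differed most among the sterol genes. Hmgcs1, at the head of the pathway, measured 17958, 19454 and 17953 against 11723, 9616 and 9394, and Insig1, which responds to sterol depletion, measured 5022, 5178 and 5248 against 1712, 1133 and 1198.

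Sterol gene promoters commonly hold a CCAAT box, bound by NF-Y, which reads ATTGG on the other strand. Of the 19 higher cholesterol genes 15 had a promoter in the same RefSeq table, and 15 held CCAAT on either strand in the 250 bases before a start. The letters stood in 83.33% of the 18 promoters of those genes and in 33.85% of all promoters. In the other lists searched that share ran from 27.78% (rod) to 66.67% (Notch targets, 3 promoters). The sterol response element searched stood in 0 of the 18 cholesterol promoters and in 0.07306% of all promoters. The 4 stretches are shown as above, with each CCAAT or ATTGG in capitals.
Hmgcs1, chr13:119690269-119690347, plus strand: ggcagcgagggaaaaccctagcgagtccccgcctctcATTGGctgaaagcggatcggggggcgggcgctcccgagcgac
Idi1, chr13:8885555-8885605, plus strand: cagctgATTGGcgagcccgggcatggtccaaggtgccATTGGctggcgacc
Lss, chr10:76531506-76531584, plus strand: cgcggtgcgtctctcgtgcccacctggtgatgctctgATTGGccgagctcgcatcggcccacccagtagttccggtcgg
Mvd, chr8:122443423-122443486, minus strand: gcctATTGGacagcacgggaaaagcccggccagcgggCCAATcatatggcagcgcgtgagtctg

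Idi1 (0.98 ± 0.25) and Lss (1.84 ± 0.11) were among the higher genes with these promoters.

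Of 18 glycolysis genes 11 were higher and 4 lower (median 0.41). The hexokinases lay on opposite sides: Hk2 measured 1240, 1071 and 1375 in untreated ESC-RPCs and 384, 347 and 387 in primary RPCs, and Hk1 measured 738, 757 and 599 against 1142, 1250 and 986. The glucose transporters Slc2a3 and Slc2a1 measured 8240, 8178 and 8213 against 1139, 1723 and 2079 and 4730, 4425 and 5736 against 8471, 7224 and 9071, so Slc2a3 was higher and Slc2a1 lower. Pfkp (-0.96 ± 0.20) and Eno2 (-1.16 ± 0.18) were lower. Of 19 serine and one-carbon genes 6 were higher and 3 lower (median 0.03), with Ahcy (2.41 ± 0.15) and Cbs (1.77 ± 0.21) higher and Gldc (-1.20 ± 0.18) and Shmt2 (-1.24 ± 0.16) lower.

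Of 44 ribosomal protein genes 37 were higher and 2 lower (median 0.36). Quantile normalisation took that median to 0.07. Rpl14 measured 952, 908 and 957 against 354, 363 and 372, and Rps6 ran the other way at 945, 1084 and 1143 against 1538, 1722 and 1741. Of 75 respiratory chain genes 26 were higher and 5 lower (median 0.08), or 22 and 15 without primary replicate 2 and 15 and 5 without untreated replicate 2. Cox6b2, a testis-enriched subunit, was higher (1.28 ± 0.28), and Ndufs5 was lower (2784, 2855 and 2655 against 6102, 5116 and 6331).

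Immediate early genes, which cells switch on within minutes of stimulation or handling, were lower in ESC-RPCs: 18 of 24 lower and 3 higher (median -1.16, and -1.06 counting dim genes by their bound). Fos measured 345, 331 and 223 in untreated ESC-RPCs and 2375, 5081 and 4995 in primary RPCs, and Egr1 measured 593, 595 and 438 against 6394, 5150 and 5849. Npas4, the activity gene of neurons, was at least 5.21-fold lower, and its primary arrays ranged widely (83.7, 549 and 310.4). The higher members Klf2 (3.30 ± 0.30) and Klf4 (2.02 ± 0.32) are pluripotency factors as well, and Jund (0.65 ± 0.09) was the third.

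Of 19 unfolded protein and ATF4 genes 8 were lower and 5 higher (median -0.19), and 2 or 3 were higher without any 1 untreated array. Ddit3, the stress factor CHOP, measured 601, 754 and 451 in untreated ESC-RPCs and 2480, 3038 and 2132 in primary RPCs, and Chac1 (-1.67 ± 0.28), Trib3 (-1.43 ± 0.21) and Atf3 (-1.34 ± 0.25) were lower. Ddit4 was higher (1.10 ± 0.12). Of 27 interferon and MHC class I genes 8 were higher and 4 lower (median -0.12). The Ifitm genes, which are high in stem cells without interferon, were higher: Ifitm1 measured 3853, 3276 and 3235 in untreated ESC-RPCs and 41.9, 77.9 and 88.9 in primary RPCs, and Ifitm2 (2.57 ± 0.13) and Ifitm3 (2.22 ± 0.27) followed. H2-K1, an antigen-presenting molecule, was higher (2091, 2040 and 2138 against 451, 581 and 759.5).

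The interferon-induced genes Rsad2 (108, 165 and 101 against 712, 739 and 1792) and Usp18 (106, 119.7 and 94.7 against 1100, 258 and 1595) were lower. Primary replicate 3 was high (0.78) and replicate 2 low (-0.59) for this list, and without replicate 2 the counts were 5 higher and 6 lower. Without untreated replicate 1 or 2, 5 were higher.

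Of 30 imprinted genes 18 were higher and 3 lower (median 0.77), or 1 lower without untreated replicate 2. Grb10, a growth inhibitor, measured 875, 956 and 903 in untreated ESC-RPCs and 8627, 7692 and 7657 in primary RPCs, and Slc38a4, an amino acid transporter, measured 850.0, 807 and 1204 against 22.5, 71 and 35.9. Impact (2.30 ± 0.09, with probe sets that disagreed in direction), Phlda2 (1.91 ± 0.43), Peg3 (1.45 ± 0.11) and Dlk1 (1.37 ± 0.29) were higher. Of 15 DNA methylation genes 6 were higher and 3 lower (median 0.14). Dnmt3l (3.08 ± 0.71) and Dnmt3b (0.73 ± 0.11), which set new methylation in early cells, were higher, and Mbd1 (-1.12 ± 0.10) and Mbd2 (-1.01 ± 0.11), which read it, were lower. Dnmt1 (2985, 2811 and 3016 against 2717, 3727 and 2505) did not pass the test.

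Xist, which marks an inactive X chromosome, was near background in ESC-RPCs and bright in primary RPCs, as given above. The Y-linked Uty (361, 373 and 354 against 217, 118 and 171) and Eif2s3y (1566, 1464 and 1497 against 981, 530.3 and 913) were higher in ESC-RPCs, and a further Y-linked gene, Kdm5d, was lower (63.6, 69.1 and 57.8 against 299, 258 and 437). The X-linked partner Ddx3x was higher by 0.40 ± 0.06, and Kdm6a (-0.59 ± 0.12) and Eif2s3x (-0.26 ± 0.05), which escape X inactivation, were lower. The sex of the pups is not given, so source and sex cannot be told apart.

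Of 28 BAF complex genes 8 were higher and 10 lower (median 0.01), with Smarcd3 (1.49 ± 0.17) and Bcl11a (1.26 ± 0.19) higher and Brd9 (-0.66 ± 0.12) and Arid1b (-0.59 ± 0.09) lower. Of 30 splicing regulators 11 were higher and 8 lower (median -0.01). The neuronal regulators ran apart: Nova2 (1.68 ± 0.15) and Elavl4 (1.65 ± 0.08) were higher, and Srrm4, of neuronal and photoreceptor microexons, measured 495, 466 and 439 in untreated ESC-RPCs and 1445, 1054 and 1973 in primary RPCs.

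Of 31 collagen genes 22 were higher and 6 lower (median 1.51, and 1.05 counting dim genes by their bound). Col9a1, of the vitreous and the ciliary margin, measured 129.8, 70.7 and 131 in untreated ESC-RPCs and 4886, 9659 and 4404 in primary RPCs, and Col2a1 measured 273, 301 and 227 against 1067, 1674 and 1653. Those 2, with Col9a3 (-1.99 ± 0.29), are collagens of vitreous and cartilage and were lower, while the fibrous Col1a2 (3636, 4336 and 3138 against 147, 194 and 231) and Col6a3 (3.70 ± 0.16) were higher. Of 24 integrin, laminin and nidogen genes 16 were higher and 2 lower (median 1.02, and 0.84 counting dim genes by their bound), or 1 lower without untreated replicate 2 or primary replicate 3. Nid2, of basement membranes, was higher (4.82 ± 0.25), and Itgb5, the integrin with which pigment epithelium binds outer segments, was lower (-1.39 ± 0.15).

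Of 31 cadherin genes 16 were higher and 5 lower (median 0.69). Cdh8 (2.68 ± 0.20) and Pcdh8 (1.97 ± 0.14) were higher, and Cdhr1, of outer segments, measured 98.6, 94 and 117 in untreated ESC-RPCs and 1631, 1027 and 1945 in primary RPCs. Cdh20 (-2.58 ± 0.21) was lower. Of 22 matrix protease genes 12 were higher and 7 lower (median 0.59, and 0.47 counting dim genes by their bound), with Adamts9 (2.79 ± 0.24) higher and Mmp14 (627, 932 and 802 against 2531, 2360 and 2587) and Adam12 (-2.02 ± 0.28) lower.

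Agreement between the groups can be bounded for part of the genes. The 95% interval of the difference lay within 0.5 on the log2 scale for 3167 genes (23.76%) and within 1 for 7941 (59.57%). Genes with several probe sets gave a check on direction. Of 6536 genes with at least 2 kept probe sets 2722 had at least 2 called, and 247 of these (9.074%) were called in both directions.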

How the data were processed

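RNA of 9 samples was extracted with TRIzol, labelled with a 3' IVT kit and hybridised to Affymetrix mouse arrays, per the labels' protocols. The deposited intensity values are MAS5 signals per the submitters' processing notes, with no version given, and every array has the same trimmed mean. MAS5 subtracts mismatch probe signals, so low values scatter widely on the log2 scale. The authors deposited them on a linear scale, and log2 was taken of the deposited intensity values here with no further normalisation. Of 45101 probe sets 64 controls were left out. A probe set was kept where 3 or more of the 9 arrays had it above their 40th percentile, and each gene was read from its kept single-gene probe set with the highest mean (13331 genes). limma 3.58.1 in R 4.3.3 was fitted to all 9 arrays with 1 mean per group, eBayes with an intensity trend and two-sided Benjamini-Hochberg adjustment over all genes. In simulated data made for this comparison with 13331 genes, 14, 34, 44 and 49 of 50 genes changed by 0.5, 1, 2 and 4 (log2) were called. Only these genes were changed there, far fewer than the 7060 called in the data, so these shares do not carry over to the comparison.

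Genes named are the 12 largest differences in each direction among called genes measured and not overlapping on all 6 arrays, the 12 largest bounds in each direction, up to 4 called members per direction of each list and a fixed set of markers and regulators. Other genes named were chosen after their values were seen. The groups and gene lists were chosen with earlier results of these data known. Lists are described by counts and medians without a test. Alternatives were other normalisations, filters, a pseudocount, the 6 arrays alone, no trend, averaged probe sets, a replicate block and leaving out each array. Annotation left 9160 probe sets without a gene and 932 with several.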

Additional observations from a re-analysis of the deposited data

How the results depend on the processing

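The number of genes called higher and of genes called lower kept within 1.5 times of 3481 and 3579 under quantile normalisation (3471 and 3493), one median per array (3636 and 3278), no filter (3484 and 3546), a 60th percentile filter (2989 and 3116), log2(value + 16) (3511 and 3628), the 6 arrays alone (3112 and 3259), no trend (3327 and 3466) and averaged probe sets (3325 and 3604). Leaving out 1 array gave 2937 to 3621 higher and 2997 to 3667 lower. Asking for 2-fold as well left 1501 and 1269, and testing every kept probe set gave 6797 and 7003. Same-numbered arrays of the 2 groups correlated at -0.0081, 0.00047 and -0.043 in their deviations from the group means, not every array correlated best with its own number, and a replicate block gave 2869 and 2920.

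Of 354 genes named, 17 changed call under some setting, among them Bub1 (-0.47), Top2a (-0.35) and Csf1r (-1.35), which were called lower with averaged probe sets. On the 6 arrays alone Cx3cr1 was called lower (-1.19). The cause of these changes was not tested. With 3 arrays a group, dim probe sets limit what can be seen: 346 genes were dim only in ESC-RPCs and 602 only in primary RPCs, and their differences are bounds. The filter counted the DKK1-treated arrays too. A gene dim in primary RPCs could thus pass on ESC-RPC arrays of either kind. One dim in all ESC-RPCs could pass only on the 3 primary arrays, so these counts do not compare the groups. Raising the floor to the 50th percentile lowered 65 of the 66 bounds printed by 1.59 to 1.86 times (median 1.86) and left none for Lin28b.

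Under quantile normalisation the median became 0.074 for ribosomal protein. With no filter the median became 0.97 for germ line, -2.42 for rod and outer segment, -0.093 for amacrine and horizontal, -0.093 for bipolar cell, 0.14 for Mueller glia (reversed), 2.02 for midbrain, hindbrain and spinal, 1.21 for collagens, 0.80 for integrins and laminins and 0.78 for Wnt ligands. With the 60th percentile filter the median became 4.70 for germ line, 0.34 for Hedgehog pathway, -0.95 for retinoic acid, -2.92 for photoreceptor transcription factors, -1.15 for bipolar cell, 2.14 for mesenchyme and pericyte, -5.68 for microglia and macrophage, 0.44 for epithelial adhesion, 4.75 for midbrain, hindbrain and spinal, -0.90 for immediate early, 1.76 for collagens and 2.12 for Wnt ligands. On the log2(value + 16) scale the median became -1.89 for photoreceptor transcription factors, -2.82 for rod and outer segment, -3.68 for cone, 0.99 for epithelial adhesion, 1.77 for forebrain, 2.18 for midbrain, hindbrain and spinal, 1.90 for dorsal and ventral neural tube and 1.18 for collagens. With the mean of each gene's probe sets the median became -0.23 for CDK inhibitors and Rb family, 0.16 for tumour suppressors, -0.19 for Notch receptors and ligands, 0.53 for FGF pathway, 0.43 for BMP pathway, 0.74 for neural crest, 1.00 for epithelial adhesion, 0.11 for BAF complex, -0.0023 for ion channels (reversed) and 0.52 for Wnt antagonists and receptors. Leaving out each array in turn, medians that moved ranged from -0.28 to 0.023 for mitosis, from -0.79 to -0.52 for CDK inhibitors and Rb family, from 0.045 to 0.14 for tumour suppressors, from -0.47 to -0.14 for Notch targets, from 0.020 to 0.18 for Hedgehog pathway, from 0.52 to 0.75 for BMP pathway, from -1.60 to -1.33 for bipolar cell, from 1.06 to 1.37 for epithelial adhesion, from 0.40 to 0.55 for axon guidance, from -1.23 to -0.95 for immediate early, from -0.39 to -0.14 for unfolded protein and ATF4, from 1.14 to 1.28 for fatty acid synthesis, from 0.63 to 0.79 for imprinted, from -0.076 to 0.11 for BAF complex and from -0.046 to 0.10 for splicing regulators.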
